A study of Rattus norvegicus with 16 samples.

Results

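The phase II conjugation enzymes described here are the UDP-glucuronosyltransferases (Ugt1 and Ugt2 genes), the cytosolic sulfotransferases (Sult genes) and the glutathione S-transferases (Gsta, Gstk, Gstm, Gsto, Gstp and Gstt genes). They were chosen by gene name alone, as every gene on the array whose symbol starts with one of these family names, which gave 45 of 35119 genes and 54 of 41012 probes. No measured value entered the choice. The livers came from male Lewis rats, and mRNA was read on one-colour arrays. There were 3 samples each of 3, 9, 12 and 18 months of age, and 4 of 24 months. Lewis is an inbred rat strain. All animals were kept specific pathogen-free with food and water always at hand, and the labels name no treatment. Each sample had 1 array, and whether each was a separate animal is not stated, so p-values measure the spread between these samples, which may be technical.

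Phase II enzymes join a polar group to drugs, hormones, bilirubin, bile acids and reactive by-products of phase I oxidation, so that bile and urine can carry them away. Glucuronosyltransferases sit in the endoplasmic reticulum and transfer glucuronic acid, sulfotransferases transfer sulfate in the cytosol, and glutathione S-transferases add glutathione to electrophiles. Hepatocytes hold most of this capacity in the body, and in rat liver several members are known to differ between the sexes under the pattern of growth hormone release.

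Values are log2 of the processed signal minus the 75th percentile of the same array, so 0 is the brightness of a probe at that percentile. A probe's level cannot be set against another probe's. The share of probes well above background was 52.5% to 65.2% per array, the 75th percentile was between 171.1 and 412.2 intensity units, and 0 spots were saturated. The arrays lay on 7 slides. All 3-month arrays shared a slide with 1 array of 9 months, all 18-month arrays had a slide to themselves, and the 24-month arrays lay on 3 slides that held no other age. The 24-month arrays also had a scan day of their own. Age therefore cannot be told apart from slide and scan day where 24 or 18 months is compared, and each called comparison of a member at 24 or 18 months is given with the adjusted p under slide as a random block. The slide shared by 9 and 3 months held only replicate 2 of the 9-month arrays. The slide shared by 12 and 9 months held only replicate 2 of the 12-month arrays, beside 2 of 9 months. The 12-month replicates 3 and 4 lay on a slide with no other age, so 12 against 9 months is partly confounded with slide too. Differences within a shared slide thus rest on 1 older array and are given with no test. Arrays of 12 months replicate 2 and 24 months replicates 3 and 4 stood apart from the others of their age. All 10 hepatocyte markers were well above background, and 0 of 10 passed the test between 24 and 3 months by limma (0 of 10 at an unadjusted p under 0.05).

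Of the 45 genes, 39 had a probe well above background throughout 1 or more ages and were tested, and 35 of these were so on all 16 arrays. The 4 others were Sult1c2 and Sult1c2a (15 arrays each), Ugt2b7 (8 arrays) and Sult4a1 (4 arrays). Ugt2b7 entered the tests only through 12 and 18 months, and Sult4a1 only through 9 months, ages at which each was high. Their p-values are thus not independent of the filter, and both genes stay in the counts of members called. Of the 6 untested genes, Gstm6l and Sult1d1 were well above background on 0 arrays, Gstt4 and Ugt2a1 on 1, Sult5a1 on 3 and the pseudogene Ugt1a9-ps on 11. Names are those of the array, and 4 have since moved in RefSeq: Gsta3 is now Gsta1, Gsta5 is now Gsta3, Ugt2b15 is now Ugt2b35 and Ugt2b17 is now Ugt2b15.

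By limma's moderated F test over the 5 ages, 14 of 39 members (35.9%) had a Benjamini-Hochberg adjusted p under 0.05, beside 37.4% of all 21478 genes tested. With slide as a random block 11 members passed, 5 of them among the 14, beside 4831 of all genes. Gsta2, Gsta3, Gstm3, Gstp1, Gstt2, Sult1b1, Ugt2a3, Ugt2b1 and Ugt2b37 lost the F test call under the block (limma adjusted p = 0.0537 for Gstm3 up to 0.175 for Gstt2). Gsta4, Gsta5, Gstm1, Gstm2, Gstt1 and Ugt1a6 passed the F test only with the block (0.0191 for Gstm1 up to 0.0367 for Gsta5). Between 24 and 3 months 7 of 39 members passed (17.9%), beside 13.3% of all genes. The 5 that rose (4.24% of all genes rose) were Gstm3, Gstp1, Sult2a2, Sult2a6 and Ugt2b7, and the 2 that fell (9.07% of all genes fell) were Gsta2 and Sult1b1. The members' share of calls was thus near that of all genes. The median log2 change of the 39 members was -0.20, with 25 of 39 below 0, and that of all genes was -0.04. With slide as a random block 1 of the 7 calls was left, that of Ugt2b7, and the calls over all genes were 311, against 2857 without the block. Within the scan session that held both ages 9 members passed, beside 2942 of all genes. In bulk tissue, fewer cells of a type and less RNA per cell cannot be told apart.

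**Figure D1:**
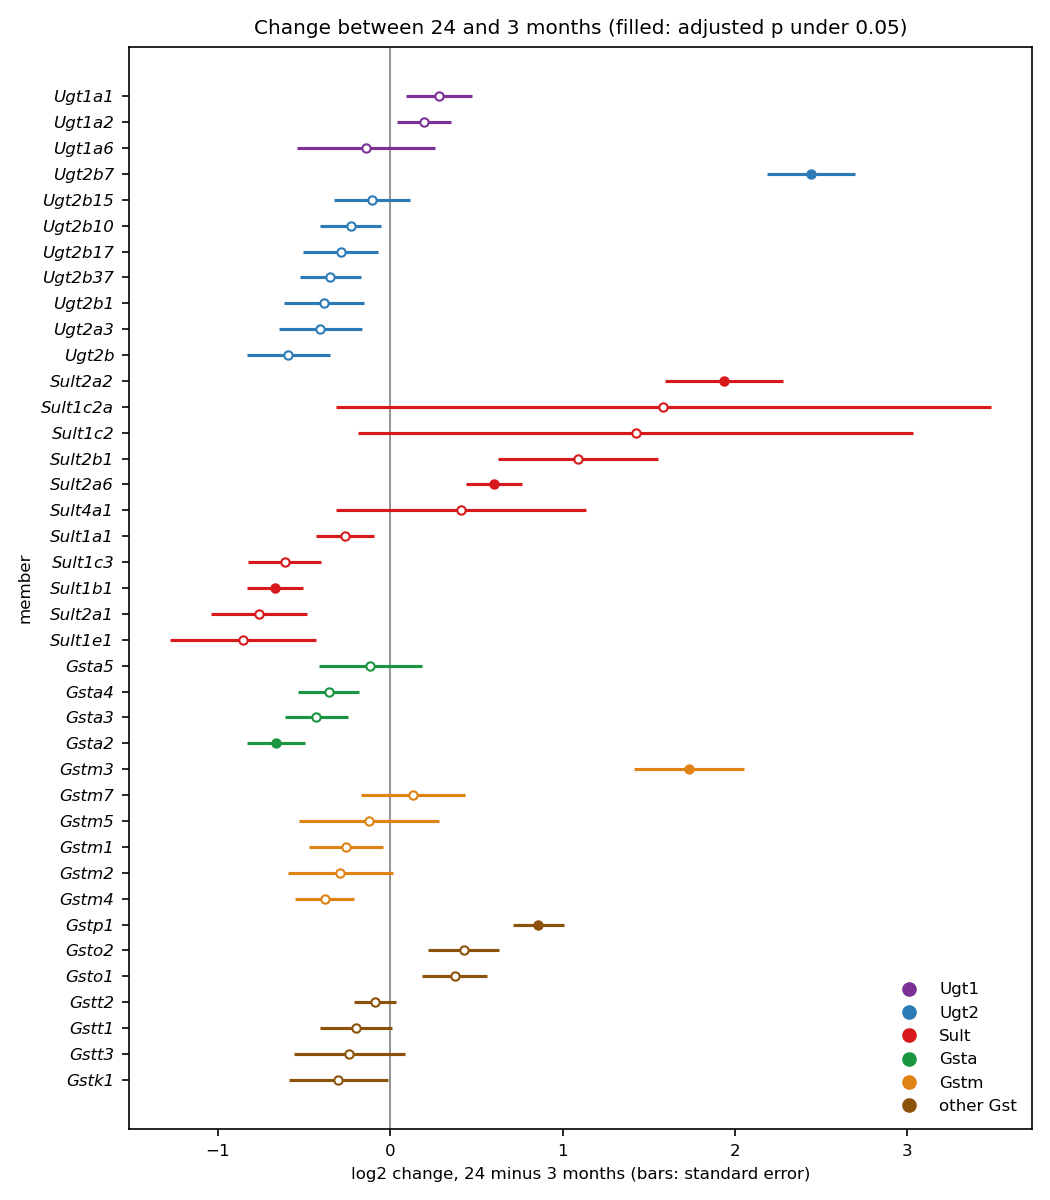
Log2 change of each of the 39 tested members, 24 minus 3 months (x axis), with the standard error as a bar, grouped and coloured by family. Filled points passed limma's test (adjusted p under 0.05): 5 members lie to the right of 0 and 2 to the left. The 4 on the right that were measured at both ages run from 0.60 for Sult2a6 to 1.94 for Sult2a2. The point of Ugt2b7 is a fitted value against arrays not well above background. Sult1c2 and Sult1c2a have the widest bars.

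The Ugt1 genes share their last exons and differ in the first, which sets the substrate. The probe for Ugt1a1, the bilirubin-conjugating enzyme, ranged from 1.77 to 2.55 over the 16 arrays. That for Ugt1a6, which conjugates planar phenols, ranged from -2.89 to -0.45. Both probes named Ugt1a2 also list transcripts of Ugt1a5 and Ugt1a6, so they read more than 1 transcript of the locus; the brighter one ranged from 4.61 to 5.34. Without slide as a block, 0 of these 3 genes passed any limma test. At an unadjusted p under 0.05 there was 1, Ugt1a6 for 24 against 18 months (adjusted p = 0.0638). With slide as a random block Ugt1a6 passed the F test (limma adjusted p = 0.0291). It then also passed for 9 against 3 months (0.0333) and 12 against 9 months (0.0273). The age means of the Ugt1a2 probe spanned only 0.25 on the log2 scale, and those of Ugt1a1 0.30.

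Of 8 tested Ugt2 genes, 4 passed the F test: Ugt2b7, Ugt2b1, Ugt2a3 and Ugt2b37. The Ugt2 enzymes conjugate steroids, bile acids and opioids, and their genes form a cluster on chromosome 14. Ugt2b7 (probe at chr14:22522550-22522609, rn4, plus strand) had log2 signals of -5.90, -6.91 and -6.91 at 3 months, -5.20, -5.14 and -5.94 at 9 months, -3.52, -3.80 and -3.70 at 12 months, -3.56, -3.69 and -3.83 at 18 months, and -3.74, -4.29, -4.29 and -4.19 at 24 months. It lay well above background on 0 arrays at 3 and 9 months, on all arrays at 12 and 18 months and on 2 of 4 at 24 months. It passed the filter only through 12 and 18 months, so its p-values are not independent of the filter. All arrays of 12, 18 and 24 months were above all arrays of 3 and 9 months. The 24-month mean, with only 2 of 4 arrays well above background, lay 1.61-fold above the 3-month limit described below. That fold is thus not a strict lower bound. The change between 24 and 3 months passed by limma (adjusted p = 6.85e-05, and 0.0202 with slide as a random block). With normexp background correction the log2 change was only 0.26, below that fold, and it passed (adjusted p = 0.0142). At 12 months it was at least 1.92-fold higher than at 9 months (adjusted p = 0.00372). With normexp background correction the log2 difference was 0.21 and did not pass (adjusted p = 0.0606). These folds set the mean of the older age against the lowest signal among well-above-background probes of each younger array. They hold only for the scaling used. The fit also called 9 against 3 months (adjusted p = 0.0255), but the gene was not well above background at either age, and no fold is given.

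Ugt2b1, which conjugates morphine and androgens in rat, was lowest at 12 months, with log2 signals of 5.76, 5.47 and 4.70. It had 6.51, 6.67 and 6.43 at 3 months, 6.37, 6.35 and 6.45 at 9 months, 7.15, 6.73 and 6.48 at 18 months, and 6.55, 5.92, 6.04 and 6.12 at 24 months. The 12-month arrays overlapped with those of no other age. At 12 months it was 2.12-fold lower than at 9 months (limma adjusted p = 0.0231; 0.0586 with slide as a random block), and the log2 difference was -0.65 within the shared slide, beside -1.08 over all arrays. That call was also lost without any 1 array of 9 months or 12-month replicate 4 (adjusted p up to 0.0736). At 18 months it was 2.78-fold higher than at 12 months (adjusted p = 0.0105; 0.736 with slide as a random block), and within the scan session that held both ages the log2 difference was 1.70 (adjusted p = 0.0872). Without 18-month replicate 1 the adjusted p was 0.0592.

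Ugt2a3, whose human counterpart conjugates bile acids, had log2 signals of -0.19, 0.04 and -0.38 at 3 months, 0.31, 0.44 and 0.21 at 9 months, -0.76, -0.42 and -1.49 at 12 months, 0.12, -0.10 and -0.38 at 18 months, and -0.40, -0.48, -1.09 and -0.36 at 24 months. The 9-month arrays were the highest, above every array of the other ages. At 12 months it was 2.31-fold lower than at 9 months (limma adjusted p = 0.0162; 0.112 with slide as a term in a fit on 3, 9 and 12 months), and the log2 difference was -1.02 within the shared slide. Without 9-month replicate 1 or 2 the call was lost (adjusted p up to 0.0609).

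Ugt2b37 was highest at 18 months, where the 3 arrays agreed closely at 7.79, 7.79 and 7.77. It had 7.28, 7.40 and 7.38 at 3 months, 7.50, 7.43 and 7.60 at 9 months, 7.13, 7.66 and 7.31 at 12 months, and 7.30, 6.90, 6.53 and 7.29 at 24 months. Every 18-month array was above every array of the other ages. Its 24-month level was 1.71-fold lower than at 18 months (limma adjusted p = 0.00559; 0.199 with slide as a random block). The probes of Ugt2b37 (chr14:22420991-22421050, rn4, plus strand) and Ugt2b (chr14:22177425-22177484, rn4, plus strand) pair over 57 bases with 51 identical. They are shown as the most alike pair of probes among the members, and binding of either transcript to both was not tested. Capitals mark the 6 bases that differ.
Ugt2b: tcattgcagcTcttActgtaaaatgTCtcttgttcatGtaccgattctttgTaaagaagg
Ugt2b37: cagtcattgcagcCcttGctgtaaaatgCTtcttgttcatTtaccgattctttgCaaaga
Ugt2b itself ranged from 7.87 to 9.17 and did not pass the test between 24 and 18 months or the F test. The second Ugt2b37 probe moved the same way between 24 and 18 months, with a log2 difference of -0.57 beside -0.78 for the probe used. The other Ugt2 genes were Ugt2b10 (0.57 to 1.52), Ugt2b15 (6.19 to 7.55) and Ugt2b17 (5.75 to 6.94), the ranges being log2 signals over the 16 arrays. Without slide as a block, they passed no test. With slide as a random block Ugt2b10 passed for 9 against 3 months (limma adjusted p = 0.0323). Ugt2b15 (0.0275) and Ugt2b17 (0.0181) then passed for 12 against 9 months. Of the 8 Ugt2 genes, 7 had a log2 change below 0 between 24 and 3 months, and among them only Ugt2b7, the one above 0, passed.

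Of 11 tested sulfotransferases, 4 passed the F test (Sult2a6, Sult2a2, Sult4a1 and Sult1b1), and 3 passed between 24 and 3 months (Sult2a2, Sult2a6 and Sult1b1). The Sult2a enzymes add sulfate to bile acids and to steroids such as dehydroepiandrosterone, and in rat they are known to be higher in females. Sult2a2 had log2 signals of -2.32, -2.33 and -2.62 at 3 months, -3.20, -3.17 and -2.61 at 9 months, -0.92, -1.98 and -1.17 at 12 months, -0.59, -0.81 and -1.11 at 18 months, and -0.94, -0.65, 0.57 and -0.94 at 24 months. All arrays of 12, 18 and 24 months were above all arrays of 3 and 9 months. At 24 months it was 3.83-fold higher than at 3 months (log2 change 1.94, SE 0.34, limma adjusted p = 0.00226; 0.0724 with slide as a random block). Over the alternatives run, that log2 change lay between 1.125 and 2.09. The step to 12 months was a log2 difference of 1.63 against 9 months (adjusted p = 0.0213), and 1.98 within the shared slide. It was 0.76 with normexp background correction (adjusted p = 0.0764), and was lost without 9-month replicate 1 or 2 or 12-month replicate 4 (adjusted p up to 0.0806).

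Sult2a6 fell before it rose. Its log2 signals were 6.07, 6.16 and 5.70 at 3 months, 5.13, 5.07 and 5.16 at 9 months, 6.05, 6.15 and 5.85 at 12 months, 6.97, 6.76 and 6.71 at 18 months, and 6.63, 6.84, 6.17 and 6.66 at 24 months. The 9-month arrays were below all others. At 9 months it was 1.81-fold lower than at 3 months (limma adjusted p = 0.0112; up to 0.0622 without 3-month replicate 1 or 2), and the log2 difference was -0.91 within the shared slide. At 12 months it was 1.87-fold higher than at 9 months (adjusted p = 0.0100), a log2 difference of 0.90, beside 0.91 within the shared slide. At 18 months it was 1.73-fold higher than at 12 months (adjusted p = 0.0407; 0.736 with slide as a random block, and up to 0.157 when any 1 of 11 arrays was left out). Between 24 and 3 months it was 1.52-fold higher (log2 change 0.60, SE 0.16, adjusted p = 0.0253; 0.403 with slide as a random block). That call was also lost with no filter on dim probes (adjusted p = 0.0509) and without either of 3-month replicates 1 and 3 or either of 24-month replicates 1 and 2, up to an adjusted p of 0.133.

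Sult2a1, the third member of this group, had 6.69, 6.92 and 6.59 at 3 months, 6.05, 6.08 and 6.19 at 9 months, 5.95, 5.60 and 6.27 at 12 months, 6.24, 6.56 and 6.10 at 18 months, and 5.13, 6.47, 5.79 and 6.50 at 24 months. The 3-month arrays were above all others. The log2 change between 24 and 3 months was -0.76 (SE 0.28), opposite in sign to Sult2a2 and Sult2a6, and it did not pass (limma adjusted p = 0.0907). The difference between these changes was not tested. The 3 genes lie on chromosome 1, and their promoters from RefSeq (GRCr8, from 250 bases before the start to 50 after it, all on the minus strand) are shown because these close paralogs were called differently between 24 and 3 months. Capitals in Sult2a1 and Sult2a6 mark the 8 of 300 bases at which these 2 differ. Capitals in Sult2a2 mark the 25 of 282 paired bases that differ from Sult2a6.
Sult2a1, chr1:84638898-84639197: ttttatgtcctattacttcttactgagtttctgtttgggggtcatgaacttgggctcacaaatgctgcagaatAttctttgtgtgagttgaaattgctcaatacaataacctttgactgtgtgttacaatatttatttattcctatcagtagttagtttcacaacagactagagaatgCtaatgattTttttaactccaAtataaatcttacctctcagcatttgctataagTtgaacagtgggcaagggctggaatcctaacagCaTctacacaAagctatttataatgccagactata
Sult2a6, chr1:84097759-84098058: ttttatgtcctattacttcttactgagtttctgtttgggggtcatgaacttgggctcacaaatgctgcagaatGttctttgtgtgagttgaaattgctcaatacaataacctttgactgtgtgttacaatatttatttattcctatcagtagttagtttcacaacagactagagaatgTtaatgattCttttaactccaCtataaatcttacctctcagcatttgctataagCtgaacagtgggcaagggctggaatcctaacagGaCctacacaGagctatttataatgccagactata
Sult2a2, chr1:85104483-85104782: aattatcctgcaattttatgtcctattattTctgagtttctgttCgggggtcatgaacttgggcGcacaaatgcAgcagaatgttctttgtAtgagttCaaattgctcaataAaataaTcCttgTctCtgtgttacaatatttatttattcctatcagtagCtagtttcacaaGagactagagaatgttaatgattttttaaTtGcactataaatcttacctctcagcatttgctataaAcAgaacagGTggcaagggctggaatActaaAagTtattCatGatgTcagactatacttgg
Sult2a1 and Sult2a6 were 97.3% identical over the 300 bases, and Sult2a2 and Sult2a6 91.1% over the paired bases. The letters GTTAAT, a part of the site of hepatocyte nuclear factor HNF1, were chosen after the sequences were seen. They stand 73 bases before the start in Sult2a6 and 64 bases before it in Sult2a2. At that place Sult2a1 has 1 of its 8 differing bases and no match. On either strand 7.44% of all promoters and 9 of 37 members with a promoter sequence hold GTTAAT. A match describes letters in this window and shows no binding.

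Sult1b1, which adds sulfate to thyroid hormone and phenols, was lowest at 24 months, with log2 signals of 6.86, 6.82, 6.25 and 7.09. It had 7.34, 7.52 and 7.42 at 3 months, 7.30, 7.26 and 7.43 at 9 months, 7.37, 7.44 and 7.28 at 12 months, and 7.57, 7.47 and 7.67 at 18 months. Every 24-month array was below every array of the other ages. Against 3 months, the 24-month level was 1.59-fold lower (log2 change -0.67, SE 0.16, limma adjusted p = 0.0142; 0.133 with slide as a random block, and up to 0.0699 without 3-month replicate 2 or 3). Against 18 months, it was 1.76-fold lower (adjusted p = 0.00215; 0.0927 with slide as a random block). Its second probe gave log2 differences of -1.11 and -1.27 for the same comparisons.

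Sult4a1, a sulfotransferase-like gene known mainly from brain, stood out at 9 months, where its log2 signals were -0.88, -1.25 and -0.82. It had -5.74, -6.15 and -6.72 at 3 months, -2.49, -5.65 and -5.59 at 12 months, -6.73, -5.79 and -6.51 at 18 months, and -6.43, -6.19, -6.58 and -3.96 at 24 months. It was well above background on all 3 arrays of 9 months and on 12-month replicate 2, and on no other array. At 9 months it was, in the scaling used, at least 14.2-fold higher than at 3 months (limma adjusted p = 0.00191). The gene passed the filter only through 9 months, where it was high, so this p is not independent of the filter. With normexp background correction the log2 difference was 1.45, below that bound, and it passed (adjusted p = 0.000595). The fit called it lower at 12 than at 9 months, with 1 of 3 12-month arrays measured (adjusted p = 0.0176; 0.202 with scan session as a term, and up to 0.0637 without any 1 array of 9 months or 12-month replicate 4). The 12-month array that was above background lay on the slide that also held 2 of the 9-month arrays, and within that slide, where all 3 arrays were measured, the log2 difference was -1.64.

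**Figure D2:**
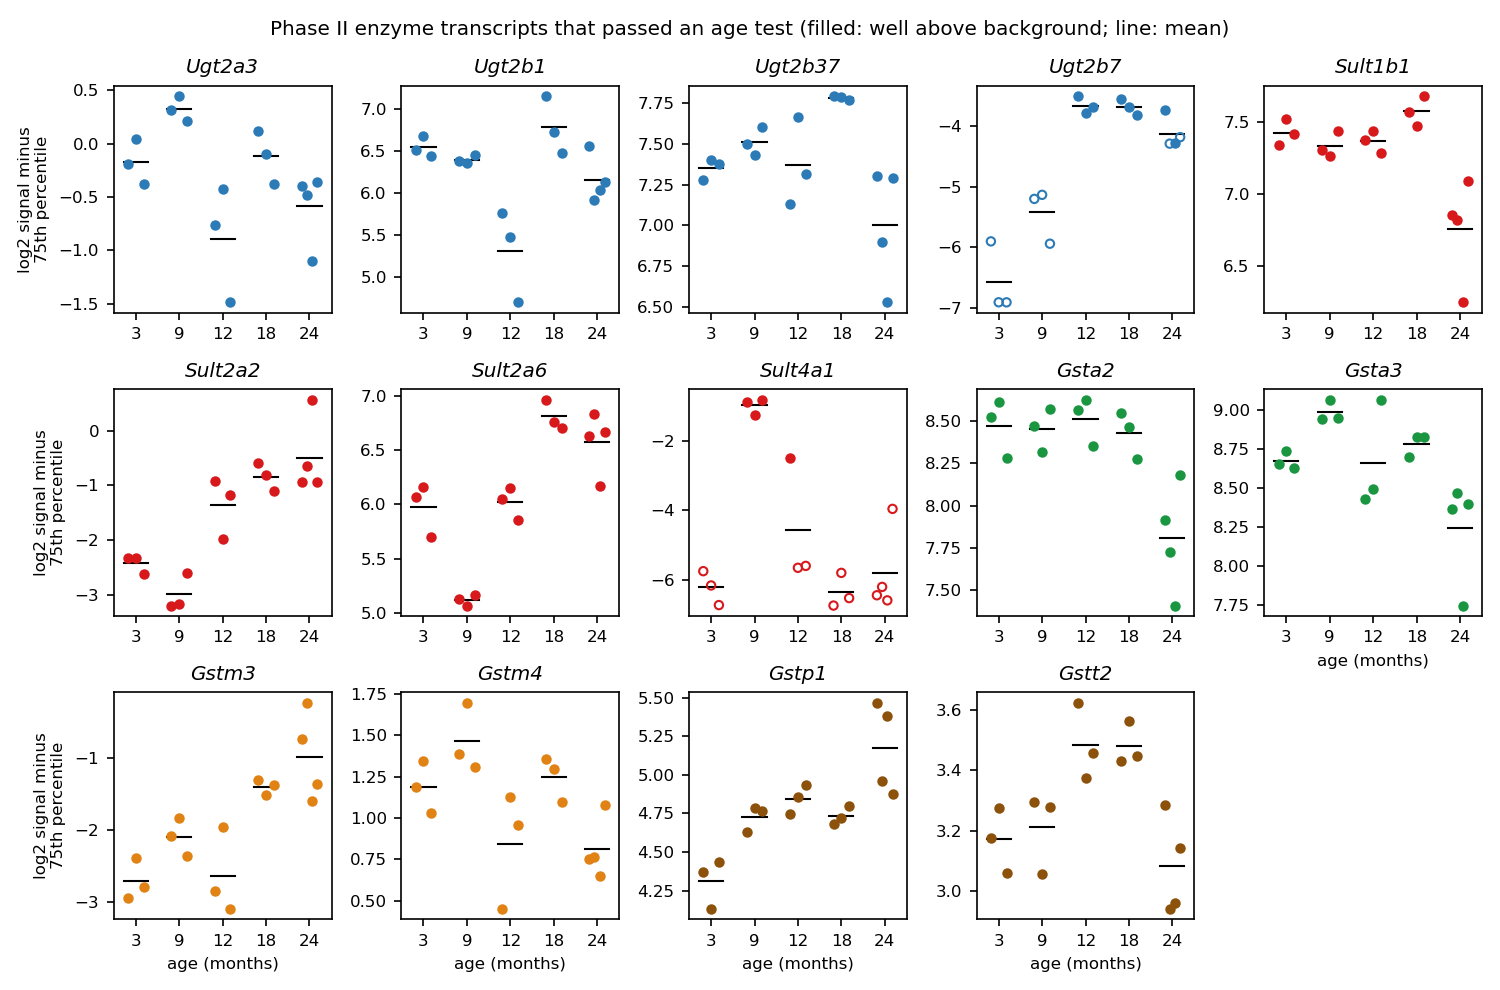
Log2 signal of each array (y axis) at 3, 9, 12, 18 and 24 months (x axis) for the 14 members that passed the F test, which include the 7 that passed between 24 and 3 months. Filled points lay well above background, open points did not, and lines are means. Ugt2b7 is open at 3 and 9 months, and Sult4a1 is filled only at 9 months and on 1 array of 12 months.

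Sult1c2 and Sult1c2a, neighbouring genes on chromosome 9, had the widest spread of all members and passed no test. Sult1c2 had log2 signals of -1.30, -1.03 and -1.21 at 3 months, -1.32, -1.06 and -1.42 at 9 months, -2.17, -0.60 and -1.35 at 12 months, -2.35, -3.43 and -3.19 at 18 months, and 2.70, -6.38, 2.03 and 2.62 at 24 months. Sult1c2a had 0.28, 0.20 and 0.46 at 3 months, 0.90, 1.06 and 0.71 at 9 months, -1.15, 0.93 and 0.88 at 12 months, -1.12, -1.67 and -2.24 at 18 months, and 4.65, -5.88, 4.12 and 4.72 at 24 months. On 3 of the 4 24-month arrays both genes were above every array of the other ages, and on 24-month replicate 2 both were below every other array and not well above background. With all arrays the log2 change between 24 and 3 months was 1.42 for Sult1c2 (SE 1.61, limma adjusted p = 0.630) and 1.58 for Sult1c2a (SE 1.90, adjusted p = 0.653). Without 24-month replicate 2 it was 3.63 for Sult1c2 (12.4-fold, adjusted p = 8.43e-05) and 4.18 for Sult1c2a (18.1-fold, adjusted p = 0.000170). Without any other single array the adjusted p stayed at 0.603 or above for both genes, so the call rests on the inclusion of 1 array. The other 24-month arrays that stood apart, replicates 3 and 4, were among the 3 high ones.

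Each gene has 2 probes, which share no stretch of 30 or more paired bases at 70% identity with a probe of another member. They are shown because all 4 probe sequences carry the pattern. Binding of either gene's transcript to the other's probes was not tested, and comparing probes with probes cannot show it. Positions are in rn4, and no base is capitalised.
Sult1c2, chr9:994117-994309, plus strand, across an intron: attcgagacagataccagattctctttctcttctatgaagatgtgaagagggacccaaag
Sult1c2, chr9:997621-997680, plus strand: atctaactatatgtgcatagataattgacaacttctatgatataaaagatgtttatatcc
Sult1c2a, chr9:1030881-1030940, minus strand: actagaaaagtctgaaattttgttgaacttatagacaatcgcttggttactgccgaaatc
Sult1c2a, chr9:1032194-1032253, minus strand: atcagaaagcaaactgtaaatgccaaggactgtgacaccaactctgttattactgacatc
The first of each pair is the brighter one used in the fit. The second probe of Sult1c2 gave -1.19, -5.78, -2.08 and -0.94 at 24 months. The second probe of Sult1c2a gave 3.67, -5.32, 3.23 and 3.93 at 24 months. On 24-month replicate 2 the second probes were thus low as well, and neither was well above background.

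**Figure D3:**
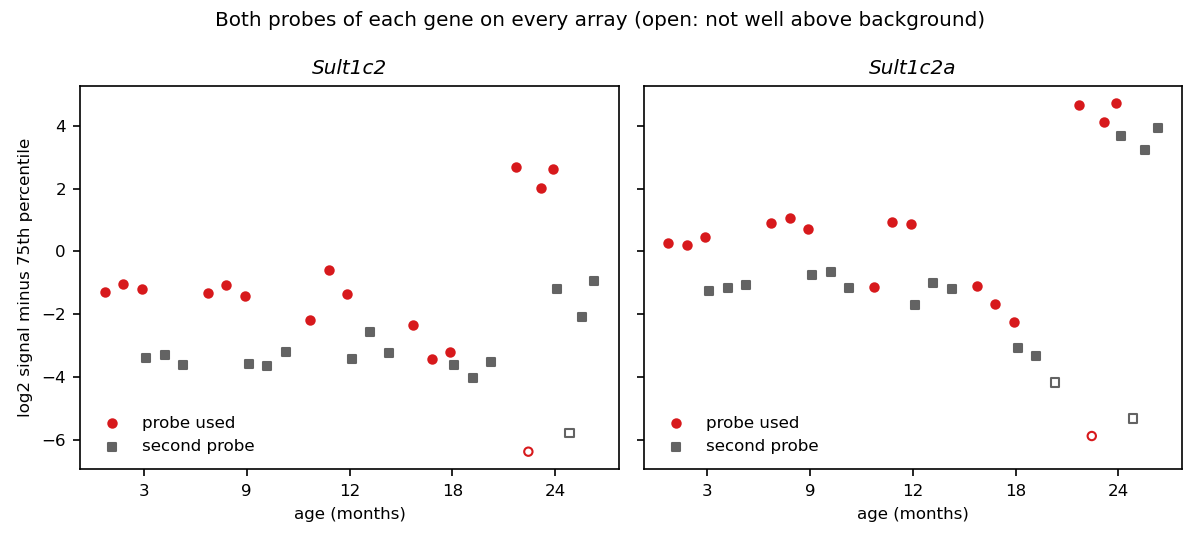
Log2 signal of both probes of Sult1c2 and Sult1c2a (y axis) on every array at 3, 9, 12, 18 and 24 months (x axis). Circles are the probe used in the fit, squares the second probe, and open symbols were not well above background. The 24-month array at the bottom of both panels is replicate 2, at -6.38 for Sult1c2 and -5.88 for Sult1c2a.

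Without slide as a block, the other sulfotransferases passed no test. Sult1e1, the estrogen sulfotransferase, known to be higher in male than in female rat liver, ranged from 3.97 to 4.69 on all arrays up to 18 months. At 24 months it had 4.14, 3.45, 1.72 and 3.98, a log2 change of -0.86 against 3 months (SE 0.42, limma adjusted p = 0.215). On replicate 3, the lowest of these, the mean of 10 other genes known to be higher in males was also at its lowest, 4.21, beside 5.55, 4.58 and 4.98 on 24-month replicates 1, 2 and 4. That mean lay between 5.57 and 5.73 at 3 months, and 3 of the 10 genes fell between 24 and 3 months (Cyp2c13, Obp3 and Rup2). Of 8 genes known to be higher in females, 2 fell (Akr1c2 and Cyp2c7) and none rose. Their mean was 1.37, 2.62, 1.21 and 1.53 on 24-month replicates 1, 2, 3 and 4, and 1.44 to 1.78 at 3 months. Sult2a2, also of that kind, was highest on replicate 3 at 0.57, where Sult2a6 had its lowest 24-month value, 6.17. With slide as a random block 0 genes of either list passed (limma; 4 and 3 had an unadjusted p under 0.05 without the block). The part of these differences in the sulfotransferase values was not tested. Sult1c3 ranged from 6.73 to 7.93 with a log2 change of -0.61 between 24 and 3 months (adjusted p = 0.0765). With slide as a random block it passed for 12 against 9 months (limma adjusted p = 0.0348). Sult1a1, the main phenol sulfotransferase, ranged from 7.05 to 7.84, and Sult2b1, which acts on cholesterol, from -4.10 to -1.25.

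Glutathione S-transferases made up 17 of the tested members. Alpha-class enzymes are abundant in hepatocytes and also reduce lipid hydroperoxides. Of 4 alpha genes, 2 passed the F test. Gsta2 had log2 signals of 8.52, 8.61 and 8.28 at 3 months, 8.47, 8.31 and 8.57 at 9 months, 8.56, 8.62 and 8.35 at 12 months, 8.54, 8.46 and 8.27 at 18 months, and 7.92, 7.72, 7.41 and 8.18 at 24 months. Every 24-month array was below every array of the other ages. Gsta2 was thus 1.58-fold lower at 24 than at 3 months (log2 change -0.66, SE 0.17, limma adjusted p = 0.0176; 0.197 with slide as a random block, and up to 0.0880 without 3-month replicate 1 or 2). Against 18 months, it was 1.54-fold lower (adjusted p = 0.0142; 0.322 with slide as a random block, and up to 0.0624 without 18-month replicate 1 or 3). The second Gsta2 probe, which also lists a transcript that RefSeq names Gsta5, differed by -0.75 and -0.17 in the same comparisons, and the mean of both probes did not pass between 24 and 18 months (adjusted p = 0.0975).

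Gsta3 on the array, now Gsta1 in RefSeq, had log2 signals of 8.65, 8.74 and 8.63 at 3 months, 8.94, 9.06 and 8.95 at 9 months, 8.43, 8.49 and 9.06 at 12 months, 8.70, 8.82 and 8.83 at 18 months, and 8.37, 8.47, 7.74 and 8.39 at 24 months. The 24-month arrays lay below those of 3, 9 and 18 months and overlapped with those of 12 months. The 24-month level was 1.45-fold lower than at 18 months (limma adjusted p = 0.0431; 0.407 with slide as a random block), a call lost when any 1 of 11 arrays was left out (adjusted p up to 0.119). Gsta4, which acts on the lipid peroxidation product 4-hydroxynonenal, ranged from 3.92 to 5.19, and Gsta5 from 5.03 to 6.82. Without slide as a block, neither passed a test. With slide as a random block Gsta4 passed the F test (limma adjusted p = 0.0268) and 12 against 9 months (0.0116). Gsta5 passed the same tests with the block (0.0367 and 0.0118). All 4 alpha genes had a log2 change below 0 between 24 and 3 months, with a median of -0.39.

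Of 6 tested mu-class genes, which lie in a cluster on chromosome 2, 2 passed the F test. Gstm3 (probe at chr2:203532382-203532441, rn4, minus strand) had log2 signals of -2.95, -2.40 and -2.80 at 3 months, -2.09, -1.83 and -2.36 at 9 months, -2.85, -1.96 and -3.10 at 12 months, -1.30, -1.52 and -1.37 at 18 months, and -0.73, -0.23, -1.59 and -1.37 at 24 months. All arrays of 18 and 24 months were above all arrays of the younger ages. At 24 months it was 3.33-fold higher than at 3 months (log2 change 1.73, SE 0.32, limma adjusted p = 0.00277; 0.124 with slide as a random block). Over the alternatives run, that log2 change lay between 0.88 and 2.23. Gstm4 had 1.19, 1.35 and 1.03 at 3 months, 1.39, 1.70 and 1.31 at 9 months, 0.45, 1.12 and 0.96 at 12 months, 1.36, 1.30 and 1.10 at 18 months, and 0.75, 0.76, 0.65 and 1.08 at 24 months. It passed the F test (adjusted p = 0.0318) and no comparison of 2 ages. Gstm1, a major hepatocyte form, was 1.82-fold lower at 12 months, with 5.93, 6.99 and 6.29, than at 9 months, with 7.11, 7.42 and 7.26 (adjusted p = 0.0402), and the log2 difference was -1.26 within the shared slide, beside -0.86 over all arrays. That call was lost when any 1 of 11 arrays was left out (adjusted p up to 0.134). All 6 mu genes had a log2 difference below 0 between 12 and 9 months, with a median of -0.64, and 1 passed. Gstm1, Gstm2 and Gstm4 passed with slide as a random block (limma adjusted p = 0.00401, 0.00572 and 0.00383). Replicate 2, an array that stood apart, had the lowest 12-month value of Gstm1, Gstm2, Gstm4 and Gstm5. Gstm2 ranged from 4.38 to 6.19, Gstm5 from -3.24 to -0.99 and Gstm7 from 2.48 to 3.83.

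Gstp1, the only pi-class member, is known in rat liver mainly from bile duct cells and from preneoplastic foci. Its log2 signals were 4.37, 4.13 and 4.43 at 3 months, 4.63, 4.79 and 4.76 at 9 months, 4.75, 4.86 and 4.93 at 12 months, 4.68, 4.72 and 4.80 at 18 months, and 5.47, 4.96, 5.38 and 4.88 at 24 months. All 3-month arrays were below, and 3 of the 4 24-month arrays above, every array of the other ages. At 24 months it was 1.81-fold higher than at 3 months (log2 change 0.86, SE 0.15, limma adjusted p = 0.00189; 0.113 with slide as a random block). Against 18 months, it was 1.35-fold higher (adjusted p = 0.0441; 0.543 with slide as a random block), a call lost when any 1 of 13 arrays was left out (adjusted p up to 0.125). The second probe differed by 0.95 and 0.51 in the same comparisons. Of 11 measured bile duct cell markers, 2 rose between 24 and 3 months (Aqp1 and Epcam), and the keratins Krt19 and Krt7 had log2 changes of 0.23 (adjusted p = 0.688) and 0.36 (adjusted p = 0.776). The mean log2 signal of the 11 markers was -1.44 to -0.77 at 24 months and -1.48 to -1.24 at 3 months, and with slide as a random block 0 of 11 passed. Between 24 and 18 months 5 of the 11 rose and 2 fell (1 of 11 passed with the block), with a median log2 difference of 0.89. The mean of the list was -1.44 to -0.77 at 24 months and -1.73 to -1.65 at 18 months, with no overlap. The part of bile duct cells in the Gstp1 values was not tested.

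Of the theta genes, Gstt2 passed the F test. Its log2 signals were 3.18, 3.28 and 3.06 at 3 months, 3.30, 3.06 and 3.28 at 9 months, 3.62, 3.37 and 3.46 at 12 months, 3.43, 3.57 and 3.45 at 18 months, and 3.29, 2.94, 2.96 and 3.14 at 24 months. The arrays of 12 and 18 months were above all others. The 24-month level was 1.32-fold lower than at 18 months (limma adjusted p = 0.0268; 0.419 with slide as a random block, and up to 0.105 without any 1 array of 18 months or 24-month replicate 2 or 3). The second Gstt2 probe went the other way by 0.08, and the mean of both probes gave a log2 difference of -0.16 that did not pass (adjusted p = 0.326). The 2 probes of Gstt3 also disagreed between 24 and 18 months, with log2 differences of -0.50 and 0.38. The age means of Gstt1 spanned 0.46. Gsto1 of the omega class ranged from 4.17 to 5.25, Gsto2 from -3.16 to -2.24, and the mitochondrial and peroxisomal Gstk1 from 4.81 to 6.28. Without slide as a block, Gstt1, Gsto1, Gsto2 and Gstk1 passed no test. With slide as a random block Gstt1 passed the F test (limma adjusted p = 0.023) and 12 against 9 months (0.00755). Gstt3 also passed for 12 against 9 months with the block (0.0438).

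Between neighbouring ages 3 of 39 members passed for 9 against 3 months (5.14% of all genes), 2 higher (1.94%) and 1 lower (3.2%). The 2 higher, Sult4a1 and Ugt2b7, were not well above background at 3 months. Of the 35 members well above background on all 16 arrays, 1 passed (2.86%) and 0 were higher, beside 5.44% of such genes called. For 12 against 9 months 7 of 39 members passed (6.28% of all genes), 3 higher (3.18%) and 4 lower (3.1%). For 18 against 12 months 2 passed, both higher (1.39% of all genes called, 1.07% higher). For 24 against 18 months 6 passed (25.8%), 1 higher (10.8%) and 5 lower (15%). The 5 that fell were Gsta2, Gsta3, Gstt2, Sult1b1 and Ugt2b37, and the members' share of calls in that step, 15.4%, lay below that of all genes. The median log2 difference of the members was 0.09 for 9 against 3 months, -0.27 for 12 against 9, 0.18 for 18 against 12 and -0.24 for 24 against 18. Over all genes these medians were 0.04, -0.01, -0.06 and 0.05 in the same order. On 12-month replicate 2, one of the arrays that stood apart, 28 of 39 members were below their own mean over all arrays. The count was 29 on 24-month replicate 3, 24 on 24-month replicate 2 and 21 on 24-month replicate 4. No such count over all genes is given. Without the 3 arrays that stood apart 12 members passed for 24 against 18 months, 6 of them higher, beside 7642 of all genes. In the same fit 9 members passed for 24 against 3 months, beside 5111 of all genes, and 8 for 12 against 9 months, beside 4006. Over the 5 ages from youngest to oldest, the median SD of the members between arrays was 0.10, 0.13, 0.49, 0.13 and 0.33. For all genes it was 0.08, 0.15, 0.29, 0.13 and 0.26.

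**Figure D4:**
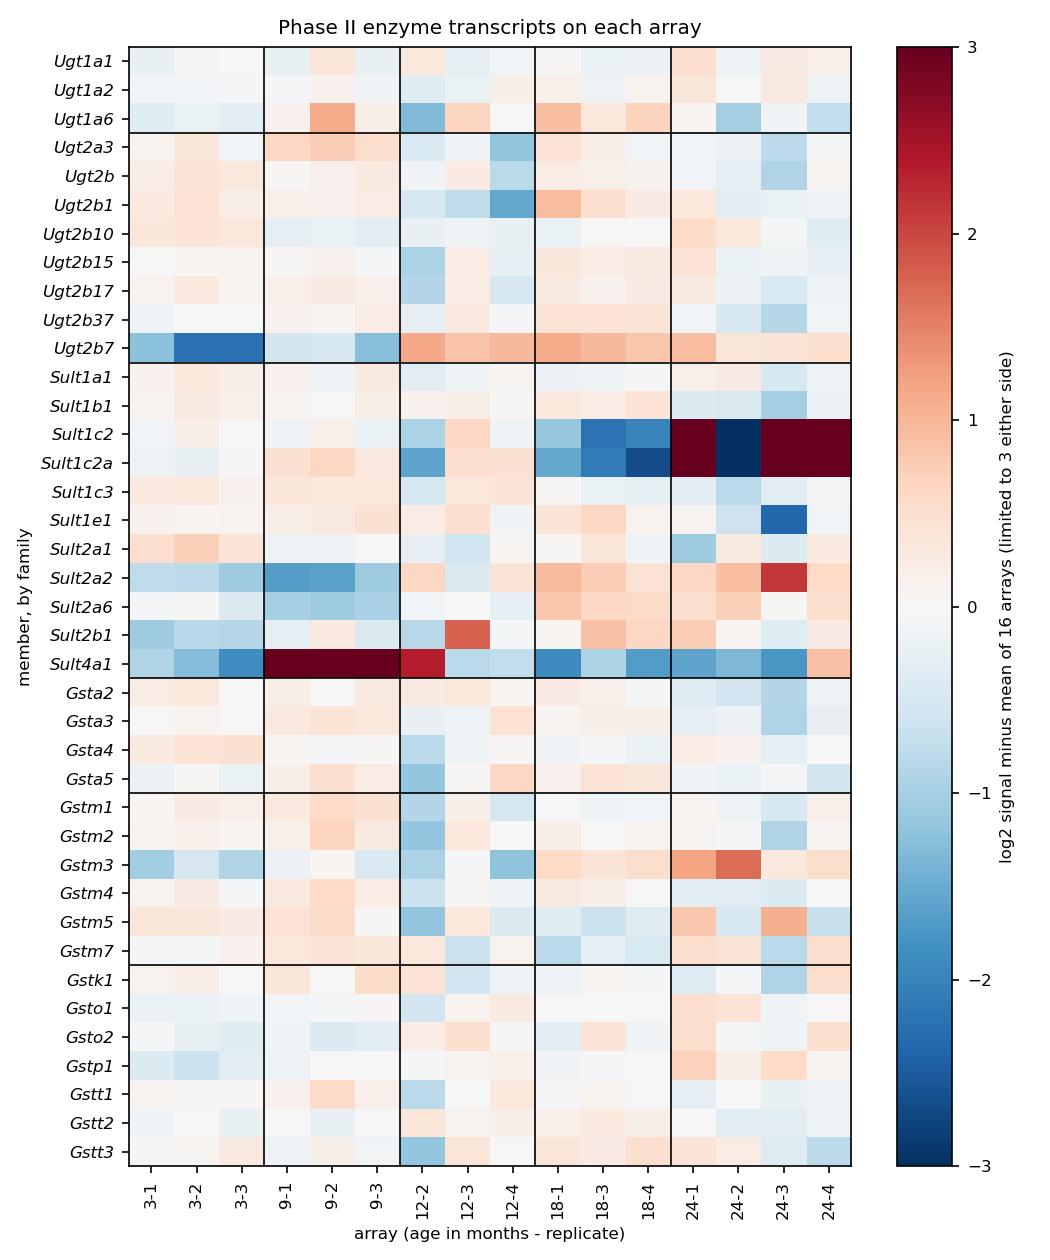
Log2 signal of the 39 tested members (rows, by family) on each of the 16 arrays (columns, by age and replicate), minus each member's mean over the arrays, with colours limited to 3 either side. Sult1c2 and Sult1c2a are red on 3 of 4 24-month arrays and blue on replicate 2, and Ugt2b7 turns from blue to red between 9 and 12 months. In column 12-2, 9 of 11 UGT, 7 of 11 SULT and 12 of 17 GST members lie below their mean. In column 24-3, 29 of 39 members do.

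The genes around these enzymes were read from lists of the pathway. Of 13 genes that supply UDP-glucuronic acid, active sulfate or glutathione, 2 passed between 24 and 3 months. Glutathione synthetase Gss rose 1.54-fold, with a 24-month mean of 2.45 ± 0.13 (SD, n = 4) beside 1.83 ± 0.06 (SD, n = 3) in 3-month livers (limma adjusted p = 0.00259). Cth, which makes cysteine for glutathione, fell 2.70-fold, with a 24-month mean of 2.79 ± 0.37 (SD, n = 4) beside 4.23 ± 0.04 (SD, n = 3) in 3-month livers (adjusted p = 0.00296). Of 18 measured enzymes of other conjugations, 3 passed: the thiopurine methyltransferase Tpmt rose 1.61-fold (adjusted p = 0.00764), Acsm3 rose 2.22-fold (0.0487) and the arylamine acetyltransferase Nat2 fell 1.82-fold (0.00814). Of 13 genes that process or export conjugates, the basolateral exporter Abcc3 rose 3.76-fold (0.0495), with 16-array detection but an SD of 1.58 at 24 months, and the peptidase Anpep fell 1.60-fold (0.0186). Of 11 measured receptors and factors known to control phase II genes, 2 rose, among them Ppara, the receptor for fatty acids, by 1.80-fold (0.0270). Between 24 and 3 months 0 genes of these 4 lists passed with slide as a random block. Without it 3, 7, 5 and 4 had an unadjusted p under 0.05 by limma, in the order of the lists. Median log2 changes of the lists were -0.09, -0.14, -0.01 and 0.18, beside -0.04 for all genes. By the F test 5, 6, 3 and 7 genes passed, and 3, 2, 2 and 6 with the block. Of the 11 receptors and factors, 4 rose for 9 against 3 months (5 passed with the block). For 12 against 9 months 2 of them rose and 1 fell (5 passed with the block).

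Markers of other cells were measured beside these values. Of 12 Kupffer cell markers, 4 rose between 24 and 3 months (Adgre1, Cd163, Marco and Vsig4) and 1 fell (Timd4), and their mean log2 signal was 2.42 to 3.24 at 24 months and 2.25 to 2.35 at 3 months. Of these 5, 3 passed with slide as a random block. Between 24 and 18 months 9 of the 12 rose (1 of 12 passed with the block), with a median log2 difference of 0.64. Of 12 stellate and endothelial markers, 2 rose between 24 and 3 months (Clec4g and Stab2) and 2 fell (Col3a1 and Pdgfrb), and 2 passed with the block. Of 10 pericentral hepatocyte genes, the zone in which many phase II enzymes are known to be high, 2 fell (Lgr5 and Rgn; 1 passed with the block), and 0 of 10 periportal genes passed by limma (0 of 10 at an unadjusted p under 0.05). The part of these in the members' values was not tested. Antioxidant response element cores (TGACNNNGC, on either strand) stood in 6 of 37 member promoters, those of Gsta2, Gsta3, Gsta5, Gstm5, Gstm7 and Gstp1, which is 16.2% beside 12.2% of all rat promoters. Cores of the xenobiotic response element (GCGTG, on either strand; both motifs can share bases, and overlaps were not counted) stood in 7 of 37 (18.9%), beside 30.9% of all.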

How the data were processed

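Per the file headers, the scanner software was Feature Extraction 10.7.3.1, and each deposited file gives 1-colour intensity values of a single array, not normalized between arrays; flags for background, saturation and outliers are columns of another kind (other), also deposited. Processed log2 values, also deposited, have no stated normalization and were an alternative. The labels name a labelling kit for microRNA although the array reads mRNA, which was not resolved. The members, gene lists and tests were chosen with earlier results of these data known.

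Processed intensities were taken to log2, and each array's 75th percentile was subtracted. Outlier-flagged spots were set to missing (43 values of kept probes), and spots of a probe were averaged. Probes were kept where every array of any 1 age flagged them as well above background, and a gene was its kept probe with the highest mean. Age means were estimated from all 16 arrays together with limma 3.58.1 in R 4.3.3 (data.table, version 1.17.8), two-sided, with Benjamini-Hochberg adjustment over 21478 genes and a threshold of 0.05. The fit was tested on simulated data. The number of arrays limits the precision. Slide was a random block with a consensus correlation of 0.687. Same-numbered arrays of different ages did not deviate together (mean r = -0.09 over 25 pairs, from -0.37 to 0.18), so replicate numbers pair no samples. Every member past the threshold was named; per-array values are given for those past the F test or the test of 24 against 3 months, and for Sult1c2, Sult1c2a, Sult2a1, Sult1e1 and Gstm1 after their values were seen. Up to 4 called genes of each list were named. One called gene of a list is not reported here.

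Probe sequences and their rn4 positions are those of the scanner files. Promoters came from RefSeq (GRCr8), and 42 of 45 members matched RefSeq by accession. Alignments were made with Biopython 1.88, and tables and figures with pandas 2.3.3 and matplotlib 3.10.9 in Python 3.11.15. Alternatives were quantile normalization, normexp background correction (offset 50), the deposited log2 values, other filters, the mean of probes, slide, scan session or replicate number in the model, and leaving out arrays; fits within a scan session were added after seeing the data.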

Additional observations from a re-analysis of the deposited data

Results flagged for a closer look

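At 24 months, the age with 4 arrays, 8 members had 1 array far from the other 3 by Dixon's test, which chance gives in about 1 in 20 groups. No share over all genes is given beside this, and members on the same array do not vary independently. Replicates 3 and 4 were among the arrays that stood apart. On replicate 2, Sult1c2 had -6.3794, beside 2.03 to 2.70 on the others, and Sult1c2a had -5.8808, beside 4.12 to 4.72. On replicate 3, Gsta3 had 7.7446, Gstm2 4.6449, Gstm7 2.4824 and Ugt2a3 -1.095, each the lowest of its 4 arrays. Sult4a1 had -3.956 on replicate 4, the highest, though not well above background. Ugt2b15 had 7.5454 on replicate 1, also the highest.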

How the results depend on the processing

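The limits are these: 3 or 4 arrays an age, slides and scan days that follow age, and signals of Ugt2b7 and Sult4a1 near background. With slide as a random block the members called were 1 for 24 against 3 months, 5 for 9 against 3, 16 for 12 against 9, 0 for 18 against 12 and 0 for 24 against 18 (limma; 2 each at an unadjusted p under 0.05 in the last 2). Over all genes the block gave 311, 2053, 4828, 0 and 971 calls in that order, against 2857, 1103, 1348, 298 and 5546 without it, and the F test gave 11 members and 4831 genes. For 9 against 3 months there was 1 with a filter on all 16 arrays, 5 with slide as a term and 5 without the 3 arrays that stood apart. For 12 against 9 months there were 14 with scan session as a term, 19 with slide as a term, 17 within the shared slide and 14 within the scan session, beside 4366, 6584, 3110 and 3298 of all genes. Fits within a shared slide, and that within this session, rest on 1 array of the older age, assumed to vary like the others. For 18 against 12 months there was 1 with no filter, 1 with scan session as a term and 1 within the session. The call within the session was not among those reported. For 24 against 18 months there were 10 with normexp, 3 with no filter, 3 with the mean of probes, 3 with scan session as a term and 12 without the 3 arrays (7642 of all genes, with 6 of the 12 higher). The 3 with scan session as a term included 0 of the 6 calls reported. The F test gave 22 with scan session as a term. With the replicate number as a block, 7 were called for 24 against 3 months, 3 for 9 against 3, 2 for 12 against 9, 1 for 18 against 12, 4 for 24 against 18 and 11 in the F test. Leaving out each array in turn gave 5 to 9 for 24 against 3 months, 1 to 4 for 9 against 3, 2 to 9 for 12 against 9, 0 to 5 for 18 against 12, 2 to 10 for 24 against 18 and 10 to 19 for the F test. The cause of these shifts was not tested. The 25 calls of single members kept their sign under every alternative run. Fits within a scan session were chosen after seeing the data.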
